A study of Mus musculus with 22 samples.

Results

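The Fos, Jun and small Maf genes encode leucine zipper factors of the AP-1 group and its small Maf relatives. The 10 genes examined were Fos, Fosb, Fosl1, Fosl2, Jun, Junb, Jund, Maff, Mafk and Mafg, taken by name from the gene families, out of 21887 protein-coding genes in the RefSeq table. For each, the peaks lying in the gene or within 100 kb of it were taken from 4 peak lists, for CREB1 and for C/EBP beta, made by chromatin immunoprecipitation and sequencing. Of 3801 peaks in these lists, 19 met this rule, and they lay at 8 of the 10 genes.

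The cells were mpkCCD, clone 11, a cultured mouse line of the cortical collecting duct, so all values describe a single clone. Before treatment they were kept for a day in medium free of serum and hormones, and they then received vehicle or 0.1 nM dDAVP, a vasopressin analog selective for the V2 receptor, for 30 min. By its name, each CREB1 list belonged to a group of 4 samples and each C/EBP beta list to a group of 2. How the samples of a group entered its list is not given. A further 10 input libraries without antibody were not analysed here. The labels name no genetic change in any group. Each antibody and treatment had a single list, so no value below has a replicate error and no test of dDAVP against vehicle could be made. The read depth is unknown. Peak lists measure no transcripts, so the labelled cell type was not checked against marker genes.

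The lists differed in length. For CREB1, 785 peaks were listed in vehicle-treated cells and 406 with dDAVP. For C/EBP beta, 209 were listed in vehicle-treated cells and 2401 with dDAVP. That is a ratio of dDAVP to vehicle of 0.517 for CREB1 and 11.5 for C/EBP beta. A gene therefore had more chances of a C/EBP beta peak after dDAVP and of a CREB1 peak after vehicle whatever its function. A gene without a peak in a list had none listed there, which is not a measurement of absence.

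As background, Fos proteins pair with Jun proteins to form AP-1, which binds its response element and drives genes of growth, stress and differentiation. Fos is an immediate early gene: its transcription starts within minutes of a stimulus. cAMP acts on Fos through CREB1 bound to a cAMP response element (CRE) in its promoter. The other members, with or without a CREB1 peak, were not sorted by this trait. Small Maf proteins lack a transactivation domain and act as partners of the cap n collar factors, such as NRF2, and of the Bach repressors. C/EBP beta belongs to the same leucine zipper superfamily and binds its own palindrome. In the collecting duct, vasopressin raises cAMP through the V2 receptor.

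The promoter bases that lay under peaks are shown first, because they place the CREB1 and C/EBP beta peaks at 4 of these genes over named binding motifs. They came from RefSeq promoter windows of the build GRCm38, the same coordinates as mm10, which run from 250 bases before to 50 bases after a start, and only bases before the start are printed. The table held 11 windows for 9 of the 10 genes. The motif searched in the first 3 was the CRE core, TGACG, on both strands, which is also part of the full CRE, TGACGTCA. Capitals mark each match, and every sequence reads 5′ to 3′ along the gene's strand.
Fos, chr12:85473640-85473889, plus strand, under the CREB1 peak after vehicle: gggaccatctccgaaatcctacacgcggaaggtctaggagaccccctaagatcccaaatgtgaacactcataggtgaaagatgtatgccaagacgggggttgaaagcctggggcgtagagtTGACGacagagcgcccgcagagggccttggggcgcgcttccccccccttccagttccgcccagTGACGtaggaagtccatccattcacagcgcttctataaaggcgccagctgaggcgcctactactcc
Junb, chr8:84978749-84978938, minus strand, under the CREB1 peak after vehicle: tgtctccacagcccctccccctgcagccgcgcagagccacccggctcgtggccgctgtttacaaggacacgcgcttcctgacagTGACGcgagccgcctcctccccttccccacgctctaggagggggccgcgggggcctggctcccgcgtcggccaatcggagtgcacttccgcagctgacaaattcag
Mafk, chr5:139791325-139791535, plus strand, under the CREB1 peak after vehicle: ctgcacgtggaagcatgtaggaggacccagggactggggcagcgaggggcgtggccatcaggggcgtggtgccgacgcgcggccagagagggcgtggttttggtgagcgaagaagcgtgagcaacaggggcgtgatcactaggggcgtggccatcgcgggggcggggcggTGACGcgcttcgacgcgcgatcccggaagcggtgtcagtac

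Fos held the CRE core at bases -129 to -125 and at -66 to -62, counted from its start, and both lay under the CREB1 peaks of both treatments. The match at -129 lay 11 bp from the centre of the vehicle peak and 6 bp from that of the dDAVP peak, and the match at -66 lay 52 bp and 69 bp away. Junb held a single match at -106 to -102, which was 24 bp from the peak centre. Mafk held a single match at -41 to -37, which was 11 bp from the peak centre. All 3 promoters with a CREB1 peak thus held the core. Of all 32851 promoter windows 20.8% held it, and of the 856 that overlapped a CREB1 vehicle peak 84.9% did. None of these 3 windows held the full CRE, which stood in 23.0% of windows that overlapped a CREB1 vehicle peak and in 1.79% of all windows. In these and later shares of windows, the match could lie anywhere in the window, under the peak or not.

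At Maff the promoter peak was one of C/EBP beta, and the motif searched was TTGCNNAA on both strands, where N is any base.
Maff, chr15:79346475-79346620, plus strand, under the C/EBP beta peak after dDAVP: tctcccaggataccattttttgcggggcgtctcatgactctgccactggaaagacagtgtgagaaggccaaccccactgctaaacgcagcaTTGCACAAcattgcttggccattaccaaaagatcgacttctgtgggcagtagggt

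The match in Maff lay at -55 to -48 from the first of 3 starts in the table, 9 bp from the peak centre. Such a match stood in 10.8% of all windows and in 36.5% of the 351 windows that overlapped a C/EBP beta dDAVP peak. The other member window with a match was that of Jund, at -152 to -145, where no list had a peak. The letters of a match describe the sequence and are not evidence of binding by themselves.

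The CRE core was also found in members whose promoter had no CREB1 peak, and these stretches are shown for contrast.
Maff at its second start, chr15:79347480-79347509, plus strand: ggctggggcggTGACGTCActgcatgactg
Mafg, chr11:120633554-120633580, minus strand: caaacatcatgTGACGtctgaggagcg
Fosb, chr7:19310090-19310116, minus strand: ggagttgcgggTGACGcaagcgcgggg

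The second start of Maff held the only full CRE in the 11 member windows, at -29 to -22, yet neither CREB1 list had a peak over that window. Of all 588 windows with a full CRE, 33.5% overlapped a CREB1 vehicle peak and 20.4% a CREB1 dDAVP peak, so that a full CRE without a listed peak was the more frequent case. Mafg held the CRE core at -22 to -18 and Fosb at -60 to -56, counted from the starts in the promoter table. Those starts lie inside the gene models, 1408 bp from the upstream end of Mafg and 73 bp from that of Fosb, as does the second start of Maff, at 899 bp. Of the 6837 windows with the core 10.6% overlapped a CREB1 vehicle peak. In all, 7 of the 11 member windows held the core, against 20.8% of all windows, and the third start of Maff was the remaining one. Those 7 windows held 58.7% to 69.7% G and C, and the other member windows 46.7% to 64.7%. The median of all windows was 52.7%, and a part of base composition in the count was not tested. The AP-1 element TGANTCA, searched on both strands, stood in 0 of 11 member windows and in 7.81% of all windows. The core of the serum response element, a run of A and T bases between CC and GG, was in 0 of 11 and in 1.63% of all. These windows reach only 250 bases upstream, and elements farther away were not searched.

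**Figure D1:**
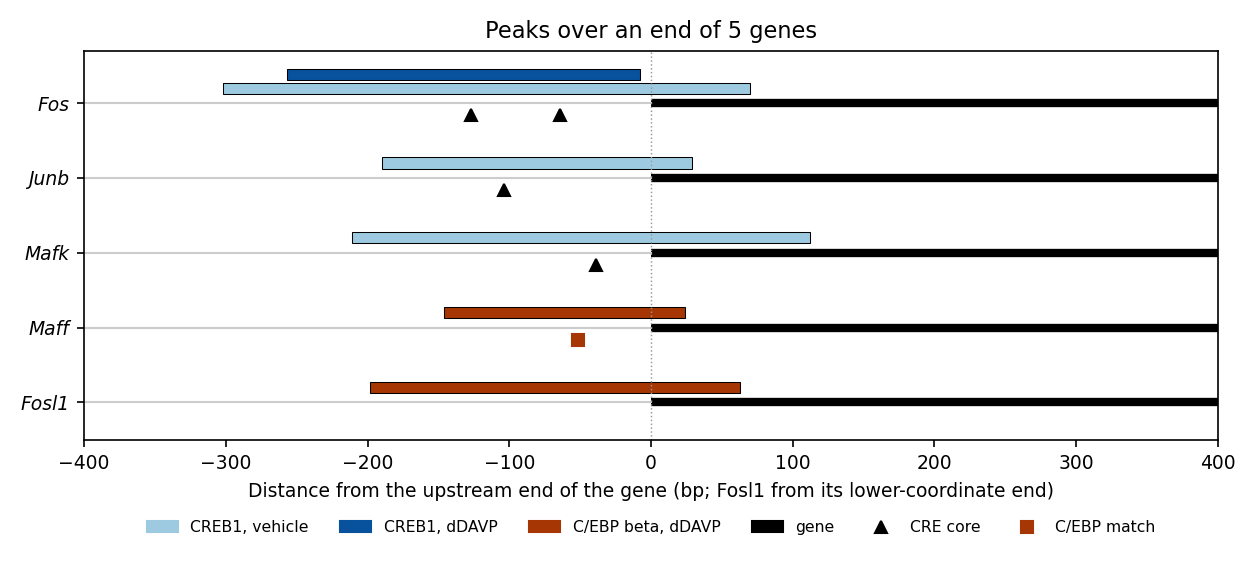
Extent of each peak centred within 200 bp of an end of Fos, Junb, Mafk, Maff and Fosl1 (x axis, bp from the upstream end of the gene). For Fosl1 the axis runs from its lower-coordinate end, since its strand was not known. Coloured bars are peaks by antibody and treatment, black bars the gene, triangles matches of the CRE core and the square a match of the C/EBP motif in the promoter window; Fosl1 had no window. CREB1 vehicle bars cover the ends of Fos, Junb and Mafk, and C/EBP beta bars those of Maff and Fosl1. The CREB1 dDAVP bar at Fos stops 8 bp short of the gene.

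Fos, the founding immediate early gene of the group (chr12:85473890-85477274, plus strand), was the member with a CREB1 promoter peak in both treatments. The vehicle peak ran over chr12:85473588-85473960, 373 bp wide, across the start of the gene. The dDAVP peak ran over chr12:85473633-85473882, 250 bp wide, and lay wholly inside the vehicle peak, ending 8 bp short of the gene. Their centres were 116 bp and 133 bp upstream and thus 17 bp apart. By width, the only ranking these lists allow, the vehicle peak was at percentile 82.4 of its list and the dDAVP peak at percentile 49.8. Within 5 kb, 492 other protein-coding genes shared the pattern of Fos, a CREB1 peak in both treatments and no C/EBP beta peak.

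A further CREB1 peak after vehicle lay 18487 bp upstream of Fos, at chr12:85455282-85455525, 244 bp wide and at percentile 27.2 by width. Fos was its nearest protein-coding gene, and the peak overlapped Gm38543, a gene not listed as protein-coding. The dDAVP list had no peak over it. C/EBP beta had no peak within 100 kb of Fos in either list. The nearest after dDAVP was 167 kb away and closest to Jdp2, the gene of an AP-1 repressor that neighbours Fos, and the nearest after vehicle was 1280 kb away.

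Fosl1 and Fosl2 encode FRA-1 and FRA-2, Fos proteins without the transactivation domains of c-Fos, and both had C/EBP beta peaks and no CREB1 peak within 100 kb. Fosl1 (chr19:5447698-5455938) had 3 peaks, all in the C/EBP beta dDAVP list. The widest, chr19:5447500-5447761, spanned the lower-coordinate end of the gene with its centre 68 bp outside and scored 145, percentile 35.7 of its list. The second, chr19:5444631-5444810, lay 2978 bp from the same end and scored 81. The third, chr19:5457561-5457650, was 90 bp wide and scored 69, and its centre was 42 bp from Ccdc85b, a coiled-coil protein gene, against 1667 bp from Fosl1. The score is the deposited value for each peak, with no stated scale. All C/EBP beta peak names carry replicate 1, so the scores and ranks may stand for 1 sample rather than 2. All 3 lay below the list's median of 197, and the highest of them was the peak over the gene's end.

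Fosl2 (chr5:32136472-32157840, plus strand) was the only member with a C/EBP beta peak after vehicle. That peak lay inside the gene, 3084 bp after the start, at chr5:32139443-32139670, 228 bp wide, and scored 182, which ranked 65 of 209. The dDAVP peak at the same place, chr5:32139390-32139786, was 397 bp wide, contained the whole vehicle peak and scored 1666, which ranked 40 of 2401. It was the highest-ranked of the 10 C/EBP beta dDAVP peaks near members. Whether scores can be compared between lists is unknown, so the pair of scores is no measure of a rise. A second dDAVP peak, chr5:32183355-32183637, stood 25656 bp past the end of the gene, with a score of 284. It overlapped Gm36732, a gene not listed as protein-coding. A C/EBP beta peak in both treatments and no CREB1 peak within 5 kb was shared by 152 other genes. All 209 peaks of the C/EBP beta vehicle list overlapped a dDAVP peak, so this is no trait of the Fosl2 site.

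Fosb (chr7:19302696-19310118, minus strand), whose product is close to c-Fos and accumulates as a stable short form under repeated stimulation, had no peak within 100 kb in any list. Its nearest CREB1 peak after vehicle was 406 kb away, near Tomm40, and its nearest C/EBP beta peak after dDAVP was 5590 kb away. By that last distance 96.0% of protein-coding genes were as near or nearer, so Fosb lay in a stretch poor in listed C/EBP beta peaks.

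Among the Jun genes, whose proteins form AP-1 with Fos proteins or with each other, Junb (chr8:84976909-84978748, minus strand) had a CREB1 peak over its start after vehicle. It ran over chr8:84978719-84978938, 220 bp wide, with its centre 80 bp upstream, at percentile 16.8 by width. No CREB1 dDAVP peak lay within 100 kb, and the nearest was 910 kb away. A C/EBP beta dDAVP peak with a score of 307 lay 82865 bp past the other end of Junb, but 123 bp from Gcdh, the gene of glutaryl-CoA dehydrogenase.

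Jund (chr8:70697739-70700616, plus strand), the member of the family known for steady expression, had no peak within 5 kb. A CREB1 vehicle peak of 294 bp lay 53958 bp past its end and 129 bp from Rab3a, a vesicle GTPase gene. A C/EBP beta dDAVP peak with a score of 220 lay 66758 bp upstream, inside Gdf15, which encodes a stress cytokine. Jun (chr4:95049036-95052222, minus strand) had no peak within 100 kb. Its nearest CREB1 peak was 446 kb away after either treatment, near Ift74, and its nearest C/EBP beta peak after dDAVP was 194 kb away, near Tek.

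Each of the small Maf genes had a peak within 100 kb. Mafk (chr5:139791536-139802653, plus strand) had a CREB1 peak across its start after vehicle, chr5:139791325-139791648, 324 bp wide, centred 50 bp upstream, at percentile 63.8 by width. It was the only peak near Mafk, and the nearest in the CREB1 dDAVP list was 307 kb away. Junb and Mafk shared the pattern of a CREB1 peak after vehicle alone within 5 kb, as did 444 genes outside the family.

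Maff (chr15:79346621-79359078, plus strand) had the most peaks, 4 in all. The C/EBP beta dDAVP peak at its first start, chr15:79346475-79346645, was 171 bp wide, centred 61 bp upstream, and scored 113, percentile 23.7. A second C/EBP beta dDAVP peak lay 31607 bp past the gene inside Tmem184b, and with a score of 39 it ranked 2395 of 2401. The CREB1 peaks, 400 bp wide after vehicle and 162 bp after dDAVP, overlapped each other 18296 bp and 18333 bp upstream of Maff. They lay 46 bp and 83 bp from a start of Pla2g6, a phospholipase gene. Fosl1 and Maff had a C/EBP beta peak after dDAVP alone within 5 kb, as did 1363 genes outside the family.

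Mafg (chr11:120625117-120634955, minus strand) had a single peak, in the C/EBP beta dDAVP list. It ran over chr11:120643661-120644020, scored 1196 and ranked 102 of 2401, the second highest of the peaks near members. It lay 8885 bp upstream of Mafg and 92 bp from a start of Pycr1, an enzyme gene of proline synthesis. In all, another protein-coding gene was nearer than the member at 8 of the 19 peaks, and a member was the nearest at 11. The same counts were not made for other genes.

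**Figure D2:**
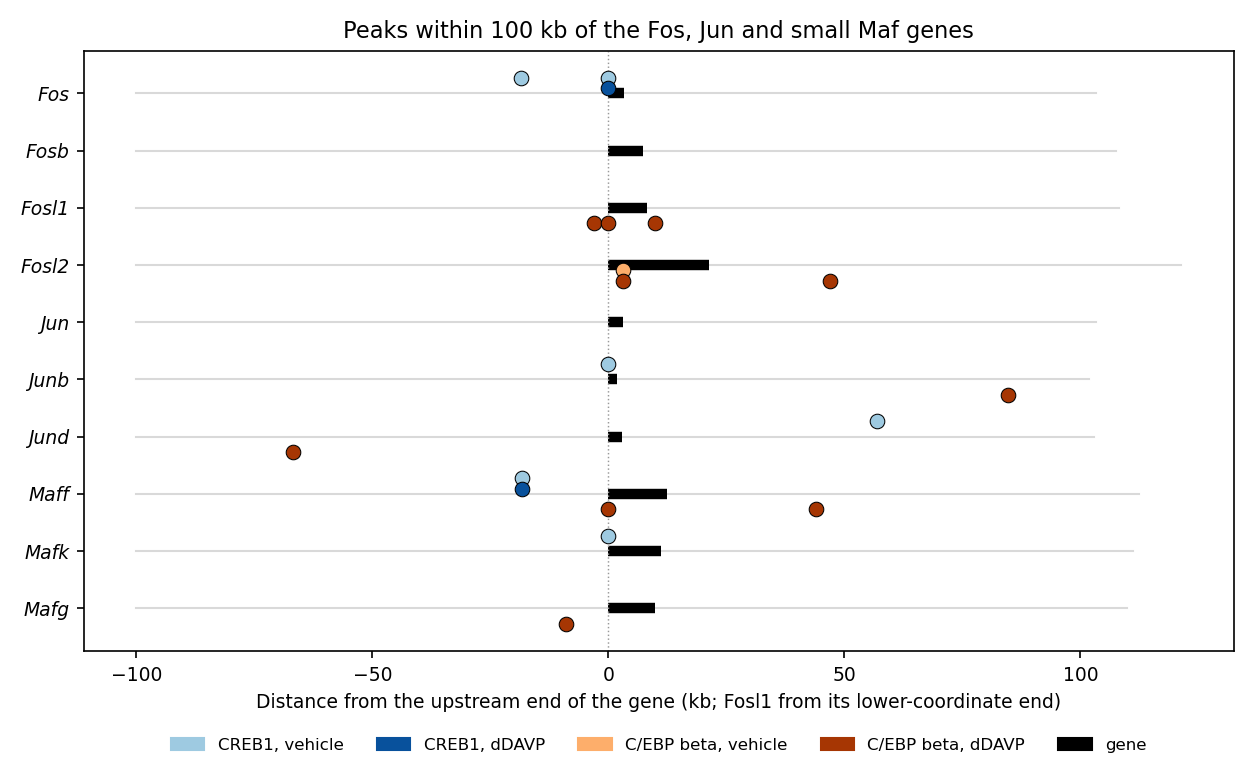
Position of the 19 peaks around the 10 genes (x axis, kb from the upstream end of each gene, drawn along its strand; Fosl1 from its lower-coordinate end). Each dot is the centre of a peak, coloured by antibody and treatment, black bars are the genes and grey lines the searched interval. Dots gather at the start of Fos, Junb, Mafk and Maff and at the lower-coordinate end of Fosl1, while Fosb and Jun have none.

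Across the family, CREB1 peaks lay at the start of Fos, Junb and Mafk, and C/EBP beta peaks at the first start of Maff and at the lower-coordinate end of Fosl1. At none of these 5 ends did both antibodies have a peak. Of the 19 peaks 6 had a centre within 200 bp of an end of their own member. The share of all listed peaks this close to a gene end was not computed, so this count is description only. No member peak overlapped a peak of the other antibody, and over the whole lists such an overlap was held by 6.24% of CREB1 vehicle peaks and 2.08% of C/EBP beta dDAVP peaks. Junb, Jund and Maff, 3 of 10, had peaks of both antibodies somewhere within 100 kb, against 8.62% of all protein-coding genes. By family, CREB1 peaks of either list were within 100 kb of 1 of 4 Fos genes, 2 of 3 Jun genes and 2 of 3 small Maf genes, and C/EBP beta peaks of either list were near 2 genes in each family. Of all protein-coding genes, 17.9% had a CREB1 peak of either list within 100 kb and 29.1% a C/EBP beta peak.

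Between treatments, 2 of the 6 CREB1 vehicle peaks near members, those at Fos and upstream of Maff, overlapped a dDAVP peak, against 50.6% of the whole vehicle list. Those absent from the dDAVP list were the distal peak of Fos and the peaks at Junb, Mafk and Rab3a. Both CREB1 dDAVP peaks near members overlapped a vehicle peak, as did 98.0% of that list. For C/EBP beta, 1 of the 10 dDAVP peaks, the one inside Fosl2, overlapped a vehicle peak, against 8.70% of that list. In the other direction, the 1 vehicle peak near a member overlapped a dDAVP peak, as did 100.0% of the vehicle list. The lists differ in length, and these counts are not a test of treatment.

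The share of the 10 genes with a peak was set beside that of all protein-coding genes, with no test, since the genes were chosen with results of these data known. Within 5 kb or inside the gene, a CREB1 vehicle peak was found at 3 of 10 (Fos, Junb and Mafk) against 5.14% of all genes, and a CREB1 dDAVP peak at 1 of 10 (Fos) against 2.70%. A C/EBP beta vehicle peak was at 1 of 10 (Fosl2) against 0.777%, and a C/EBP beta dDAVP peak at 3 of 10 (Fosl1, Fosl2 and Maff) against 7.79%. With any list counted, 6 of 10 had a peak against 12.1%. Shares among short genes or genes with many neighbours were computed only for 100 kb, so crowding was not checked at 5 kb.

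Within 100 kb, CREB1 vehicle peaks were near 5 of 10 against 17.8% of all genes, and CREB1 dDAVP peaks near 2 of 10 against 10.3%. C/EBP beta vehicle peaks were near 1 of 10 against 3.43%, and C/EBP beta dDAVP peaks near 6 of 10 (Fosl1, Fosl2, Junb, Jund, Maff and Mafg) against 29.1%. Any list gave 8 of 10 against 38.4%. The genes stood in crowded places: they had a median of 9 protein-coding neighbours within 100 kb, from 1 at Fos and Jun to 19 at Mafg, against 4 for all genes. Among the 4073 genes with at least 9 such neighbours, an added comparison, the shares were 34.6% for CREB1 vehicle, 21.5% for CREB1 dDAVP, 4.71% for C/EBP beta vehicle and 39.9% for C/EBP beta dDAVP. Of the members, 5 had fewer than 9 neighbours, among them Fos and Maff, the carriers of the CREB1 dDAVP peaks, so these shares are not matched to each member. The limit of 100 kb fell between the C/EBP beta dDAVP peak 82.7 kb from Junb, just inside, and peaks just outside that were 117 kb from Maff (CREB1 vehicle) and 117 kb from Mafg (C/EBP beta dDAVP).

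**Figure D3:**
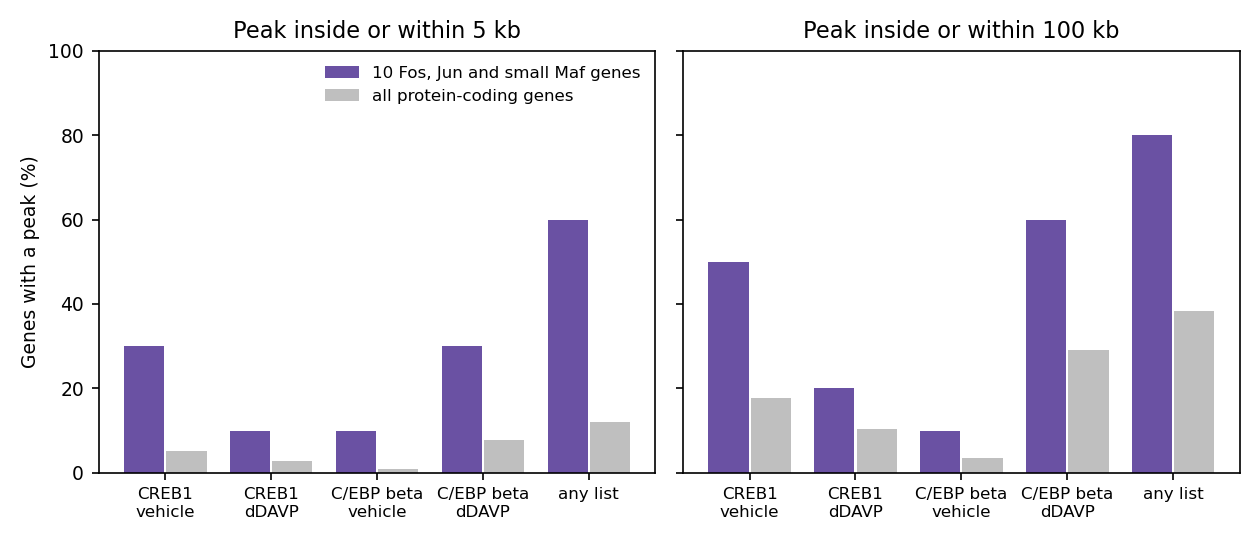
Share of genes with a peak inside them or within 5 kb (left) or 100 kb (right), in percent, by peak list and for any list. Purple bars are the 10 Fos, Jun and small Maf genes, grey bars the 21887 protein-coding genes; each purple step of a bar is 1 gene, and there is no replicate error. Within 5 kb any list gave 6 of 10 genes against 12.1%, a share of all genes that is not matched for neighbours.

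Within their own lists, the peaks near members varied widely in width or score. The 6 CREB1 vehicle peaks ran from percentile 16.8 at Junb to percentile 87.5 at the Pla2g6 start upstream of Maff. Both CREB1 dDAVP peaks lay below their list's median width, at percentile 49.8 at Fos and 5.42 upstream of Maff. The 10 C/EBP beta dDAVP scores ran from 39 to 1666, and 5 lay above the list's median of 197, among them those inside Fosl2, at Pycr1 and at Gcdh. The peaks over the ends of Fosl1 and Maff were in the lower part of the list.

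**Figure D4:**
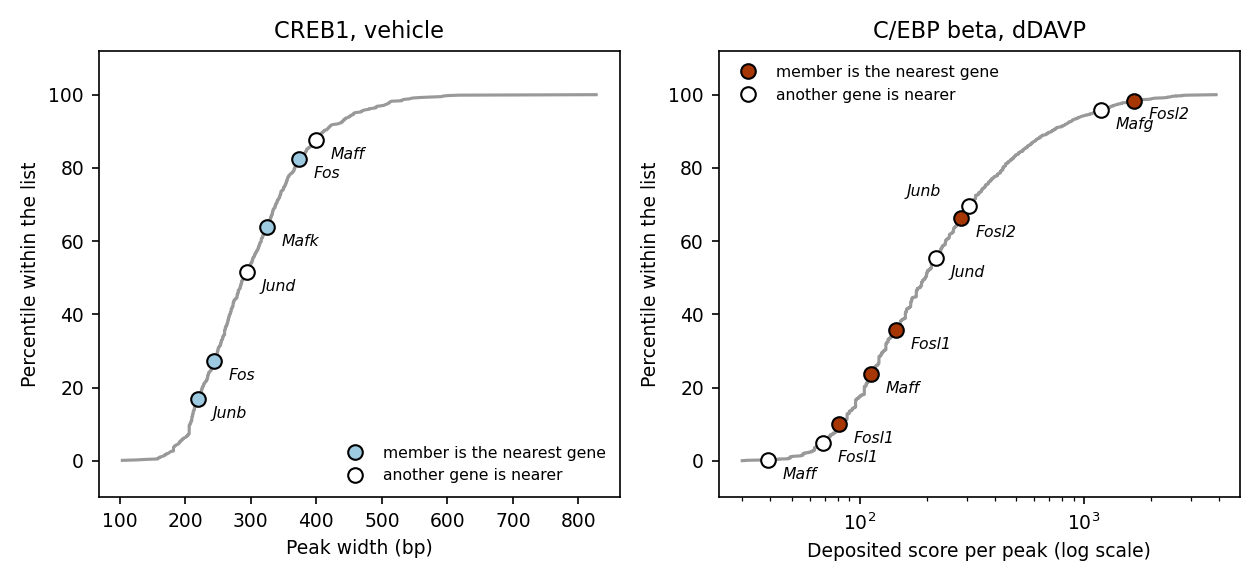
Rank of each peak near a member within its own list. Left, CREB1 vehicle peaks by width in bp; right, C/EBP beta dDAVP peaks by deposited score on a log axis; the y axis is the percentile within the list, the grey line all peaks, and filled dots those whose nearest protein-coding gene is the named member. The peak inside Fosl2 (score 1666) and the one upstream of Mafg (score 1196) stand near the top, and the peak at the start of Maff (score 113) in the lower part.

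The partners and regulators of these factors were then examined in 6 lists with 49 genes. Within 5 kb, C/EBP beta dDAVP peaks were at 10 of 49 (20.4%), C/EBP beta vehicle peaks at 2 (4.08%) and CREB1 vehicle peaks at 1 (2.04%), and CREB1 dDAVP peaks at 0, beside the shares of all genes given above for 5 kb. Of the 7 dimer partners of AP-1 proteins, 3 had a C/EBP beta dDAVP peak. Atf3, a stress-induced partner of Jun proteins, had one of 523 bp centred 31 bp from its start with a score of 434. Atf7, a relative of ATF2, had peaks with scores of 220 and 150, and Jdp2 had one with a score of 61 outside the gene. Atf2, Batf, Batf2 and Batf3 had none within 5 kb.

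Of the 6 cap n collar and Bach genes, whose products pair with small Maf proteins, Nfe2, Nfe2l1 and Nfe2l2 had C/EBP beta dDAVP peaks within 5 kb. Nfe2l2, which encodes NRF2, the activator of oxidative stress defence, had a peak 1230 bp from a start with a score of 2334, at percentile 99.2, and a second with a score of 533. The first was also in the vehicle list, with a score of 169. Nfe2l1 had peaks with scores of 763 and 244, and Nfe2 had one across an end of the gene with a score of 100. No CREB1 peak lay within 5 kb of these 6 genes or of the 4 large Maf genes, and the large Maf genes had no C/EBP beta peak there either.

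Of 17 MAP kinase and MAP kinase kinase genes, which relay the signals that phosphorylate Jun and induce Fos, Map2k1 had a CREB1 vehicle peak 97 bp from its start. Mapk14, which encodes p38 alpha, had C/EBP beta dDAVP peaks 2 bp and 766 bp from a start with scores of 121 and 306. Srf, which encodes serum response factor, and its 3 partner genes Elk1, Elk3 and Elk4 had none within 5 kb. Of 11 MAP kinase phosphatase genes, Dusp5 had a C/EBP beta dDAVP peak with a score of 90. Dusp16 had peaks with scores of 781 and 78 after dDAVP, and the first overlapped a vehicle peak that scored 51. Within 100 kb, the 49 genes had CREB1 vehicle peaks at 13 (26.5%), CREB1 dDAVP peaks at 10 (20.4%), C/EBP beta vehicle peaks at 2 (4.08%) and C/EBP beta dDAVP peaks at 20 (40.8%). The shares of all genes were 17.8%, 10.3%, 3.43% and 29.1% in the same order. Among genes with at least 9 neighbours they were 34.6%, 21.5%, 4.71% and 39.9%. The neighbours of the 49 genes were not counted, and genes close together can count the same peak, so no excess can be read from these shares.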

How the data were processed

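Samples of mpkCCD cells were grouped by antibody and treatment from their titles: of 22, 12 were immunoprecipitated and 10 were inputs, 2 of these named for both antibodies. Per the submitters' processing notes, BWA, SAMtools, MACS2, bedtools and the build mm10 were used, without stated versions. The authors deposited 4 peak lists, and the way replicates entered them is not given in the sources used here. Both C/EBP beta lists hold the authors' deposited score per peak, on an unstated scale, and all their peak names carry replicate 1, a bandwidth of 300, 1 duplicate and a q of 0.01. Positions are printed counted from 1.

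A peak belonged to a gene when at least 1 bp of it lay in the gene or within 100 kb (5 kb where stated) of it. Distances to peaks given in kb in the text run from the nearer edge of the peak to the gene. Other distances run from the peak centre unless an end of the peak is named. Genes and promoters came from RefSeq tables of GRCm38.p6, which hold no exons, so whether a peak lay in an exon, an intron or a UTR was not determined. Upstream ends are the outer ends of the gene models. Python 3.11.15, pandas 2.3.3, NumPy 2.4.6 and matplotlib 3.10.9 were used, and interval counting was tested on simulated peaks. The members and lists were chosen with earlier results of these data known. Named were all 10 members, the gene nearest to each of their peaks and every gene of the related lists with a peak within 5 kb, except 1 that is not reported here. Genes with a member's pattern within 5 kb were counted, and named only if 5 or fewer. The planned protein comparison was not run, and no p-value was computed.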

Additional observations from a re-analysis of the deposited data

How the results depend on the processing

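Of 72 recomputed values for 18 results, 46 stayed within 1.5 times the main count or, for shares, within its Wilson interval, and 26 did not. When a peak counted only for its nearest protein-coding gene, members with a peak within 100 kb fell from 5 to 3 (CREB1 vehicle), 2 to 1 (CREB1 dDAVP) and 6 to 3 (C/EBP beta dDAVP), and peaks from 2 to 1 (CREB1 dDAVP) and 10 to 5 (C/EBP beta dDAVP). An interval of 200 kb gave 11 CREB1 vehicle, 4 CREB1 dDAVP, 2 C/EBP beta vehicle and 17 C/EBP beta dDAVP peaks, at 4 members for CREB1 dDAVP and 2 for C/EBP beta vehicle. The upper 50% of each list left 0 members and 0 peaks for CREB1 dDAVP, within 5 kb as well (the Fos peak of 250 bp was just under the median width of 250.5 bp), and for C/EBP beta dDAVP 5 peaks within 100 kb and 1 member within 5 kb. With the C/EBP beta dDAVP list reduced to its 209 best scores, 2 peaks within 100 kb and 1 member within 5 kb remained, Fosl2. Among the 12243 genes no longer than the longest member, the share with a peak within 100 kb was 19.2% (CREB1 vehicle), 11.3% (CREB1 dDAVP), 3.10% (C/EBP beta vehicle) and 27.0% (C/EBP beta dDAVP). Among genes with at least 9 neighbours, an alternative chosen after seeing the data, it was 34.6%, 21.5%, 4.71% and 39.9% in that order. An interval of 50 kb, the peak centre, a width of at least 100 bp, an interval of 1000 bp and the stricter overlap moved no count by over 1.5 times. No paired analysis was possible because each group has a single list, and no replicate could be left out for the same reason. The read depth behind the lists is unknown.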
